A study of Mus musculus with 8 samples.

Results

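The microarray used for mouse sciatic nerve carried 16251 probes for long intergenic noncoding RNAs (lincRNAs) among its 55681 non-control probes. They are the non-control probes whose name begins with A_30_P, and the array's own description of every one of them, and of no other probe, begins with the word lincRNA. Each is a distinct sequence of 60 bases. The probes stand for 4622 names, most of them a genomic interval followed by F (forward strand) or R (reverse strand), drawn from 3555 regions, with 1 to 10 probes a name and a median of 3. The regions run from 62 to 7128490 bases, with a median of 7328 bases, and lie on 20 chromosomes. Of the probes, 8199 are for the forward and 8052 for the reverse strand. The files give no position for 118 probes, and they place 8 outside the interval in their name. All coordinates below are mm9, as the files give them. Only 12 names, with 57 probes, are gene names: XIST, TSIX, H19, KCNQ1ot1, HOTAIR, NEAT1, NEAT2, TUG1, NRON, PINC, lincP21 and BRN1-A.

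Nerves came from male mice aged 60 days, per the labels: 4 wild-type, also described as non-transgenic, and 4 SOD1G93A. The SOD1G93A mouse carries a mutant human SOD1 transgene and is a model of amyotrophic lateral sclerosis; the series title calls the animals presymptomatic. Each array was 2-colour. Nerve RNA was labelled with Cy3, and a common reference with Cy5, on all 8 arrays. The reference was 1 pool made from the hearts, livers and kidneys of newborn wild-type and SOD1G93A animals together. As no dye was swapped, dye and tissue cannot be told apart in a ratio of nerve to reference, and the pool has no spread of its own. All arrays were on 1 slide and the first number of the slide position was the same within a genotype, so position and genotype cannot be told apart.

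lincRNAs are transcripts from between protein-coding genes that carry no long reading frame. Many are spliced and polyadenylated like mRNAs, and they are generally less abundant and more restricted to particular tissues. A few are abundant nuclear RNAs, such as Malat1 (older name NEAT2), which collects in nuclear speckles, and Neat1, which builds paraspeckles. Others act in gene silencing, such as Xist, which coats the inactive X chromosome in female cells.

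The Xist probes set 1 library apart. On the library labelled wild-type replicate 1 the log2 ratio of nerve to reference of the 5 XIST lincRNA probes was 0.95 to 1.27, and on the other 7 arrays it was -4.07 to -1.80. In Cy3 these 5 probes passed the flag for well above background on that array alone. Both other Xist probes ran the same way, at 0.36 to 0.56 there and -1.27 to -0.75 elsewhere. The probe of the Y-linked gene Ddx3y was at -3.74 there and at 0.10 to 0.44 elsewhere, and that of Eif2s3y at -3.27 and at -0.85 to -0.66. This library therefore goes against its label of a male mouse. The genotype difference in Cy3 detection and the counts of called probes are given with and without it. Most values of single probes, the wild-type means and the set of kept probes include it.

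**Figure D1:**
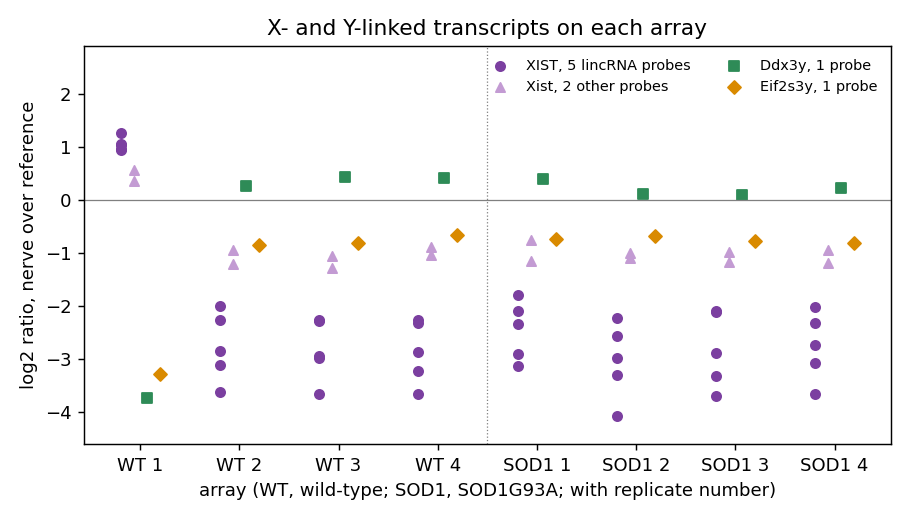
Log2 ratio of nerve to reference (vertical axis) on each of the 8 arrays (horizontal axis) for the 5 XIST lincRNA probes, the 2 other Xist probes and 1 probe each of the Y-linked genes Ddx3y and Eif2s3y. On wild-type replicate 1 the XIST probes lie between 0.95 and 1.27 and Ddx3y at -3.74, the reverse of the other 7 arrays.

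The labelled tissue was present on every array: all 11 Schwann cell marker genes were measured, with a mean log2 ratio of 3.49 to 4.21, against -3.47 to -2.94 for 4 heart markers. The mean of 7 measured skeletal muscle markers was 2.86 on wild-type replicate 1 and 2.13 on wild-type replicate 2, against -0.97 to -0.53 on the other 6 arrays. The mean of 6 smooth muscle markers was also high on these arrays, at 0.98 and 0.63, against -1.14 to -0.41 on the others. The mean of 8 macrophage markers was 0.60 to 0.91 in wild type and 0.73 to 1.87 in SOD1G93A, and that of 6 measured adipocyte markers 3.23 to 4.67 and 2.25 to 3.71. The mean of 7 endothelial markers was lower on every SOD1G93A array, at -1.40 to -0.98 against -0.84 to -0.35. The part of these cell types in the results was not tested, and in whole nerve fewer cells of a type and less RNA per cell cannot be told apart. Wild-type replicate 1 had the highest median Cy3 signal, 724 intensity units, and SOD1G93A replicate 1 the lowest, 373, with 528 to 604 on the others. The mouse Sod1 probe, which does not measure the human transgene as such, differed by -0.17 ± 0.11 (SE) between genotypes (limma adjusted p = 0.611).

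Some sequences are needed to follow the results, and they are printed 5′ to 3′ as on the array, in lower case.
The first are 2 probes of different names beside Isoc2a, on the forward strand from chr7:4843443-4843502 and chr7:4843444-4843503, with the run of 59 bases that they share in capitals. Their values serve as a repeat measurement of 1 target.
A_30_P01029418: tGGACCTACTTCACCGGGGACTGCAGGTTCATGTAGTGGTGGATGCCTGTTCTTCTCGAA
A_30_P01023903: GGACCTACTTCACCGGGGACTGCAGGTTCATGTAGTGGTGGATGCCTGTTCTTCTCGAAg
The following pair comes from the Malat1 locus on the reverse strand, the first near its 3′ end at chr19:5795713-5795772 and the second near its 5′ end at chr19:5802130-5802189. They gave opposite ratios.
A_30_P01019221: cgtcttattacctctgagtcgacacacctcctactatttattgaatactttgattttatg
A_30_P01031754: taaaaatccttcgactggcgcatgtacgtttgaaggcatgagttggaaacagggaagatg
The next 3 are among the 8 brightest probes and hold the letters AATAAA, in capitals, which are the usual polyadenylation signal of mRNAs. The first and second lie side by side at chr17:17482258-17482317 and chr17:17482318-17482377, and the third at chr11:22686751-22686810, all on the reverse strand.
A_30_P01025369: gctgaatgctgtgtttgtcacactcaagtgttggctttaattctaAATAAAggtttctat
A_30_P01022075: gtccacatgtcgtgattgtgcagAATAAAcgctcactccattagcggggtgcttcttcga
A_30_P01026458: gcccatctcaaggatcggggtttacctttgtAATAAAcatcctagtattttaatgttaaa
The last, also among the brightest, stands for the probes rich in G and C, at 83.3% of its bases, on the forward strand at chr14:78936616-78936675.
A_30_P01031448: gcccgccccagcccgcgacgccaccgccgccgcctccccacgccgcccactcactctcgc

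Most lincRNA probes were not well above background in the nerve. A probe counts as well above background where the scanner software flagged at least 1 of its spots so. In Cy3, the nerve channel, 13.8, 9.33, 11.2 and 9.62% of lincRNA probes passed this flag on the 4 wild-type arrays and 10.3, 11.6, 10.1 and 9.45% on the 4 SOD1G93A arrays. The highest value is that of wild-type replicate 1, and the groups overlap. The means were 10.98% ± 2.03 (SD, n = 4) and 10.4% ± 0.896 (SD, n = 4), and they did not differ beyond the spread between arrays (two-sided exact permutation p = 0.686, with 0.0286 the smallest p that 4 against 4 allows). Without wild-type replicate 1 the sign turned, to 0.307 percentage points higher in SOD1G93A (two-sided exact permutation p = 0.657). In Cy5, the reference channel, the share was 22.8% ± 1.102 (SD, n = 4) beside wild-type and 22.6% ± 1.15 (SD, n = 4) beside SOD1G93A samples.

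The other 39430 probes were detected far more often, at 45.8% ± 2.42 (SD, n = 8) in Cy3 and 59.1% ± 0.733 (SD, n = 8) in Cy5. The lincRNA share in Cy3 was lower by 35.1 percentage points ± 1.03 (SD, n = 8 arrays), on 8 of 8 arrays (two-sided paired exact permutation p = 0.00781, the smallest possible). The ratio of the detected shares in both dyes was also lower for lincRNA probes. The Cy3 share divided by the Cy5 share was 0.389 to 0.591 for lincRNA probes and 0.737 to 0.850 for the others, a difference of -0.305 ± 0.0261 (SD, n = 8), with the same sign on 8 of 8 arrays (two-sided paired exact permutation p = 0.00781). This compares dyes as well as tissues. Both p-values measure only how a difference repeats over arrays. All arrays read the same probes beside the same reference pool, so neither p-value measures a spread between probes.

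**Figure D2:**
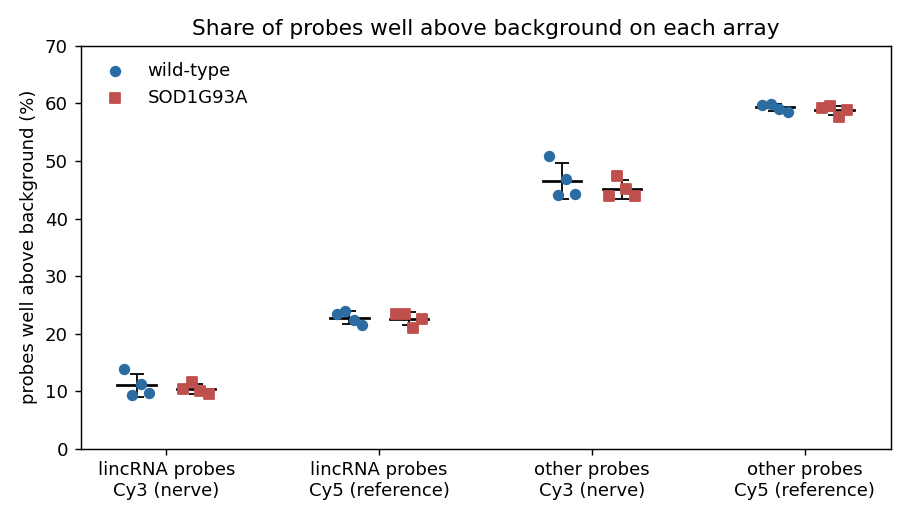
Percent of probes well above background (vertical axis) in each dye for lincRNA and other probes, 1 point per array, with the group mean as a line and ± 1 SD as bars (n = 4 per genotype). lincRNA probes lie at 9.33 to 13.8% in Cy3 and 20.996 to 23.986% in Cy5, below the other probes in both dyes.

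A probe was kept for testing where at least 4 of the 8 arrays flagged it so in Cy3. This held for 1712 lincRNA probes, 10.5% of them, and for 18142 other probes, 46.0%. On the same rule, 1644 lincRNA probes (10.1%) passed in both dyes, 68 (0.418%) in Cy3 only, 2009 (12.4%) in Cy5 only and 12530 (77.1%) in neither. In all, 11067 (68.1%) were above background on no array in either dye, and 1216 (7.48%) on all 8 arrays in Cy3. Detection on a single array was most common on wild-type replicate 1, with 290 lincRNA probes, against 5 to 93 on each other array. The same held for the other probes, with 977 there and 7 to 181 on each other array. The share kept ran from 6.25% on chromosome 9 to 14.5% on chromosome 6.

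By name, 991 of 4622 had a kept probe, 258 had all of their probes kept and 3631 had none. Of the 3397 names with 3 or more probes, 779 had any kept probe, 114 had all and 442 had exactly 1. In 1067 regions probed on both strands, 97 had a kept probe on both, 362 on 1 strand and 608 on neither. Names from regions probed on both strands had a kept probe in 26.1% of cases and those from regions probed on 1 strand in 17.5%. The former carry more probes, 4.54 against 2.64 a name, and the share of single probes kept was 10.4% against 10.7%. For the 97 regions with both strands kept, the log2 ratio of nerve to reference had a Pearson r of 0.17 between strands, a description over regions that share libraries, and had the same sign in 60.

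Probes close to a named gene on the same strand were kept most often. Within 1 kb of another array probe of a named gene, 268 of 984 lincRNA probes were kept on the same strand (27.2%) and 44 of 727 on the opposite strand (6.05%). At 1 to 10 kb the shares were 15.1% and 7.36%, at 10 to 100 kb 9.59% and 9.24%, and beyond 100 kb 6.54% and 4.19%. In 92 names with a kept probe and a kept neighbour within 1 kb on the same strand, the wild-type log2 ratios of both had an r of 0.93. This r was 0.31 over 109 names at 1 to 10 kb and 0.21 over 150 names at 10 to 100 kb. These are descriptions across names, whose probes share libraries and can share a transcript. Of 4613 names with a position, 894 have an interval that holds another kind of array probe on the same strand; 32.4% of these and 18.8% of the rest had a kept probe.

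Base composition moved with detection too. The share kept was 5.43% below 35% G and C bases and 20.7% at 55% and over, while that of the other probes was 35.3% and 49.8% in the same bins. Among kept lincRNA probes, 632 (36.9%) had their highest ratio on SOD1G93A replicate 1, against 6.02 to 11.8% on each other array, and 428 (25%) their lowest on wild-type replicate 1. Of 83 kept lincRNA probes with 70% or more G and C, 59 (71.1%) were highest on SOD1G93A replicate 1, where their median log2 ratio was 0.61, against 0.14 to 0.34 on the other 7 arrays. These counts by array were not made for the other kept probes. The part of base composition in the results on SOD1G93A replicate 1 was not tested.

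**Figure D3:**
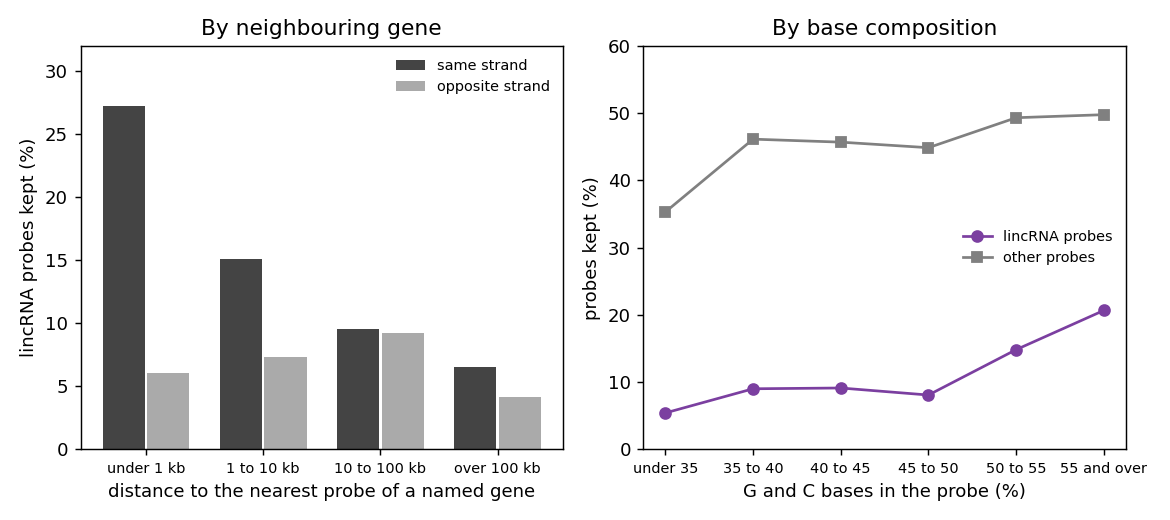
Percent of probes kept (vertical axes) by distance and strand of the nearest probe of a named gene (left, lincRNA probes) and by percent of G and C bases (right, lincRNA and other probes). Same-strand probes under 1 kb reach 27.2%, opposite-strand probes there 6.05%, and lincRNA probes with 55% or more G and C 20.7%.

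The letters AATAAA stood in 5.61% of kept lincRNA probes, in 3.38% of those above background in Cy5 only and in 3.77% of those in neither dye, against 3.92% of all lincRNA probes. Their reverse complement TTTATT, the same letters on the other strand, stood in 3.39, 3.19, 2.95 and 3.03% of these sets. Among the other probes AATAAA was in 15.1% of the kept and 12.6% of all. A lincRNA probe with AATAAA was kept in 15.1% of cases, with TTTATT in 11.8% and with neither in 10.3%. A match is a description of letters, and both motifs may stand in 1 probe.

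Where they were measured, the lincRNA probes were dimmer than the others, with a median log2 Cy3 signal of 7.48 against 8.84 over kept probes. Their wild-type log2 ratio to the reference had a median of 0.12, against 0.10 for the other kept probes, and the lower and upper 5% of probes lay beyond -1.17 and 1.32, against -1.34 and 1.85. Probes of 1 name gave like ratios: over 209 names with 3 or more kept probes the median SD between probes was 0.165, against an SD of 0.730 over all kept lincRNA probes. In 24 pairs of kept probes that share 50 or more bases the median absolute difference was 0.084.

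In wild-type nerve against the reference, 158 lincRNA probes were higher, 9.23% of those kept, and 116 lower, 6.78% (limma adjusted p under 0.05 and at least 1 log2 unit). Over all 19854 kept probes 13.7% were called higher and 8.29% lower, so both lincRNA shares lie below the background. With the scanner's processed signals they do not: 377 lincRNA probes were higher, 22% of those kept, and 213 lower, 12.4%, against 20.8% and 12.1% of all kept probes. The calls fall in 77 and 69 names, 2 of which hold calls both ways. Without wild-type replicate 1 the counts were 166 and 115. With the filter taken in either dye, which adds probes seen only in the reference, 158 were higher and 198 lower of 3721, or 4.25% and 5.32%, against 9.93% and 9.39% of all probes that passed it.

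The gene-named nuclear RNAs differed along their length. All 5 NEAT1 probes, from the paraspeckle RNA, were higher in nerve, with wild-type means of 1.95, 2.33, 2.54, 2.58 and 2.78 over 228 to 480 bases from the 3′ end of its interval (chr19:5842306-5845476, reverse strand), and the other Neat1 probe was at 2.30. For A_30_P01023251, the highest of them, the wild-type arrays read 2.97, 2.67, 2.79 and 2.69 and the SOD1G93A arrays 2.74, 2.29, 2.55 and 1.81. The groups overlap through SOD1G93A replicate 1, and they differed by -0.43 ± 0.18 (SE), which did not reach the threshold (limma adjusted p = 0.437). Further along the same strand, 3 probes of chr19:5834117-5835940 were lower in nerve, at -1.41 to -1.25; the nearest other probe is that of Neat1, 8021 bases away. Neat1 is known to have a short and a long form with a shared 5′ end, and which of them these probes measure was not tested.

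At the Malat1 locus the ratio changed sign. The 3 NEAT2 probes, within 144 bases of the 3′ end of chr19:5795689-5802671, had wild-type means of -1.0002 ± 0.13, -0.73 ± 0.04 and -0.79 ± 0.03 (SD, n = 4), and the Malat1 probe at the same place as the first read -1.12 ± 0.16 (SD, n = 4). The 3 probes of chr19:5798135-5800557, 2567 to 2872 bases from that end, were at 1.20 to 1.28, and the 3 of chr19:5801802-5802597, 6441 to 6578 bases from it, at 1.90 to 2.08. Brightness differed as well: the NEAT2 probes had a mean wild-type log2 Cy3 signal of 7.69 to 7.90, and the probes further along 11.1 to 15.98. For A_30_P01031754, the brightest lincRNA probe of all, the wild-type arrays read 1.68, 2.40, 1.99 and 2.24 and the SOD1G93A arrays 2.97, 1.74, 2.09 and 1.32. The spread in SOD1G93A was the larger, with replicate 1 highest and replicate 4 lowest, and the difference was -0.04 ± 0.31 (SE; limma adjusted p = 0.972).

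TUG1, a widely expressed lincRNA first described in retina, also changed sign along its interval (chr11:3539796-3547536, reverse strand). Its 5 probes and the 3 of an overlapping name, 407 to 653 bases from the 3′ end, were at -1.29 to -0.84. A further 3, 2345 to 2468 bases from it, were at -0.54 to -0.41, and a Tug1 probe of another kind at 4398 bases was at 0.46 ± 0.06 (SD, n = 4). The cause of these changes along a locus was not tested.

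H19, an imprinted RNA of fetal tissue, was lower in nerve with all 5 probes, from -2.51 to -1.78, and its other probe read -1.80 ± 0.08 (SD, n = 4). None of the 5 was called between genotypes (smallest limma adjusted p = 0.637). HOTAIR, a transcript of the HoxC cluster, had 1 of 5 probes kept, above background on 2 arrays of each genotype, at 0.47 ± 0.22 (SD, n = 4). KCNQ1ot1, an imprinted antisense RNA, had 1 of 5 kept, at -0.11 ± 0.18 (SD, n = 4). TSIX, the antisense partner of Xist, PINC and lincP21 were above background in neither dye by the rule for keeping. BRN1-A had 4 of 4 probes, and NRON 1 of 5, above background in the reference only.

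**Figure D4:**
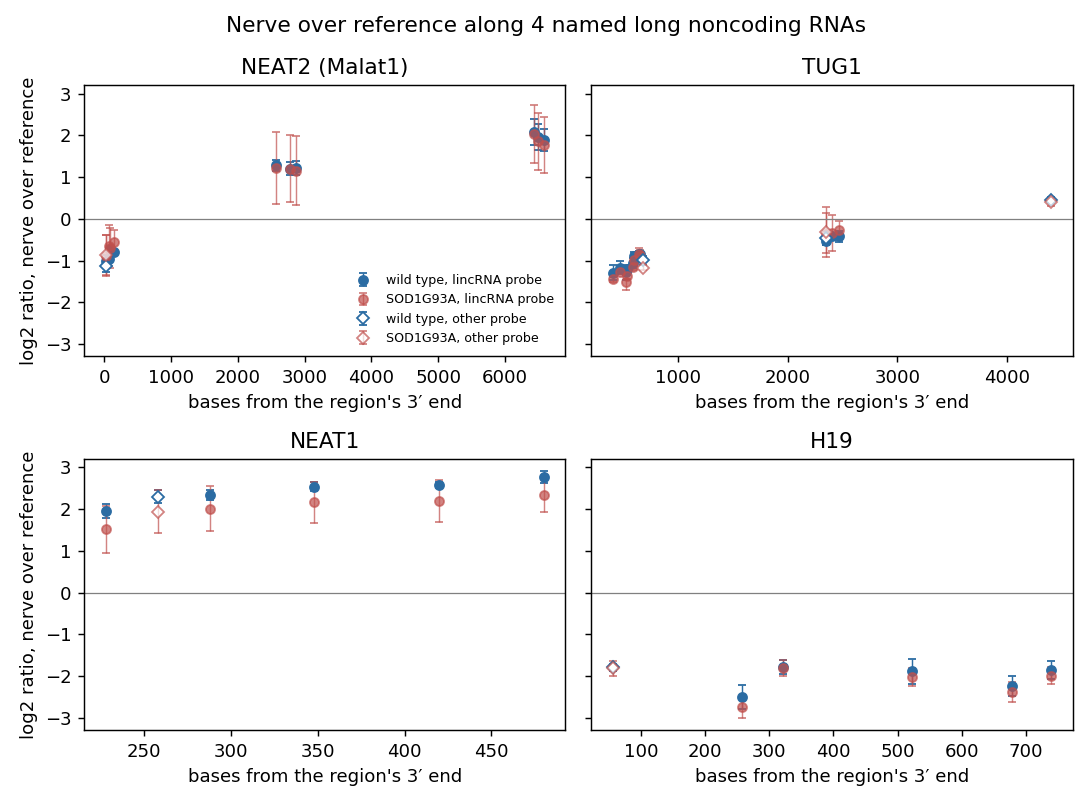
Mean log2 ratio of nerve to reference (vertical axis, ± SD, n = 4 per genotype) by distance in bases from the 3′ end of the interval (horizontal axis) for NEAT2 (Malat1), TUG1, NEAT1 and H19, with lincRNA probes as circles and other probes as diamonds. In wild type the mean runs from -1.12 to 2.08 along the Malat1 locus and from -1.29 to 0.46 along TUG1. In both genotypes it stays above 0 for NEAT1 and below 0 for H19.

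Of the 209 names with 3 or more kept probes, 26 had 3 or more called higher in nerve and 16 lower, NEAT1, H19 and TUG1 among them. Names with overlapping intervals are counted separately, so these are not counts of independent loci. The same count was not made for the other probes. The names that follow were chosen after their values were seen. With 8 of 10 probes at 1.01 to 1.89, chr16:43623581-43642715 on the forward strand held the most, and the names within or beside it were at 1.34 to 1.45 and 1.68 to 1.90. The latter lies 4920 bases from a Zbtb20 probe, a transcription factor gene, at 1.17 ± 0.23 (SD, n = 4). All 3 probes of chr3:125556184-125556476 were at 1.52 to 1.92, 12708 bases from Ugt8a, the enzyme of myelin galactolipid synthesis, which read 5.48 ± 0.30 (SD, n = 4). All 5 probes of chr4:136856064-136877219 were at 1.15 to 1.39, and the probe of Cdc42, a small GTPase, 25 bases away read 1.41 ± 0.16 (SD, n = 4). On the lower side, 4 of 10 probes of chr5:74487385-74497428 were at -1.66 to -1.01, 732 bases from Dancr, itself a lincRNA gene, at -1.65 ± 0.09 (SD, n = 4). All 3 probes of chr17:39983902-39985688 were at -1.40 to -1.36 beside Rn45s, the ribosomal RNA precursor, at -1.45 ± 0.22 (SD, n = 4).

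The single probe highest in nerve was A_30_P01030294 (chr1:15839754-15839813), at 2.87 ± 0.12 (SD, n = 4). The reference channel rose above background for it beside 1 of 4 wild-type nerves and 0 of 4 SOD1G93A nerves, so this ratio is a lower limit. It lies 4230 bases from Sbspon on the same strand, which read 1.34 ± 0.13 (SD, n = 4). The next ones were NEAT1 probes and 2 probes inside intervals that hold Pura, a gene of a single-stranded nucleic acid binding protein, at 2.70 ± 0.19 and 2.57 ± 0.16 (SD, n = 4); the Pura probe read 2.47 ± 0.22 (SD, n = 4). The lowest was A_30_P01017818 (chr16:11008685-11008744), at -3.25 ± 0.18 (SD, n = 4). A_30_P01020518 (chr9:78116774-78116833), 120 bases from Gm3776, was at -3.004 ± 0.23 (SD, n = 4). A_30_P01032068 (chrX:50406967-50407026) read -3.16 ± 0.12 (SD, n = 4), but it was above background in nerve on only 2 of 4 wild-type arrays, so this is an upper limit and its place in the order is not set. A_30_P01027230 (chr12:55857943-55858002) was at -2.37 ± 0.29 (SD, n = 4), while Snx6, a sorting nexin gene whose probe lies 5014 bases away on the same strand, read 0.51.

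The 8 brightest probes in Cy3 had ratios from near 0 to well above it. The brightest of all, A_30_P01031754 of the Malat1 locus, was at 2.08 ± 0.31 (SD, n = 4), and A_30_P01024724, within an interval that holds a D630045M09Rik probe, at 1.21 ± 0.34 (SD, n = 4). A_30_P01030669 was at 0.33 ± 0.05 (SD, n = 4). A_30_P01022075 and A_30_P01025369, side by side within an interval that holds an Oaz1 probe, were at -0.02 ± 0.06 and -0.08 ± 0.06 (SD, n = 4), and A_30_P01026458 at 0.17 ± 0.05 (SD, n = 4). Oaz1 encodes the antizyme of ornithine decarboxylase. Both bright probes rich in G and C were higher: A_30_P01031448 at 1.40 ± 0.10 and A_30_P01031264 at 0.98 ± 0.12 (SD, n = 4). On SOD1G93A replicate 1 these read 2.11 and 1.52, against 1.23 to 1.44 and 0.85 to 0.92 on the other 3 SOD1G93A arrays. No bright probe was saturated, and none was called between genotypes (limma adjusted p 0.62 to 0.972).

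In 5 regions, the brightest with both strands kept, the strands could be set side by side. At chr5:35975265-35982561 the forward probe was at 1.86 ± 0.27 and the reverse probe 26 bases from it at 0.18 ± 0.32 (SD, n = 4). At chr7:108209996-108216032 the forward strand was at -0.62 ± 0.04 and the reverse at 0.33 ± 0.05 (SD, n = 4), on opposite sides of 0. The other 3 pairs have 75 to 80% G and C. At chr14:115423660-115463160, which holds Mir17hg, the host of a microRNA cluster, forward and reverse were at -0.27 ± 0.21 and 0.22 ± 0.18. At chr12:73838608-73862621 they were at 0.51 ± 0.19 and 0.98 ± 0.12, and at chr5:34696192-34722842 at 0.76 ± 0.14 and 0.44 ± 0.20 (SD, n = 4).

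Between genotypes, 1 of the 1712 kept lincRNA probes was called higher in SOD1G93A and 0 lower (limma, Benjamini-Hochberg adjusted p under 0.05 over all 19854 kept probes). Over all kept probes 34 were called, 17 each way, which is 0.171%. At an unadjusted p under 0.05 there were 130 lincRNA probes, 7.59%, against 11.2% of the other probes. The groups did not overlap for 77, 4.50%, with 44 higher and 33 lower in SOD1G93A, against 7.55% of all kept probes. The median difference was 0.008 log2 units, and -0.020 over the other kept probes. The count of called lincRNA probes was 13 without SOD1G93A replicate 1, 5 higher and 8 lower, and 1 without any other single array. Those 13 are 0.759% of the kept lincRNA probes, against 0.997% called of all kept probes in that fit. On the 6 arrays numbered 2 to 4, without both replicates 1, it was 7, or 0.409%, against 1.31% of all. With the processed signals it was 4, or 0.234%, against 14 of all, 0.0705%. With array weights it was 24, or 1.4%, against 2.3%, and with median centring in place of loess 0, with 2 called over all probes, 0.0101%.

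The ratio joins 2 dyes, and each was also fitted alone. In Cy3 alone 0 lincRNA probes were called, against 34 of all kept probes, 0.171%, and the smallest limma adjusted p was 0.0590. At an unadjusted p under 0.05 there were 166, or 9.70%, against 11.8% of all. In Cy5 alone, 8 lincRNA probes were called higher and 1 lower in the SOD1G93A group, although Cy5 carried the same pool on all arrays. These 9 are 0.526% of the kept lincRNA probes, against 24 of all kept probes, 0.121%, and the cause was not tested.

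The 11 further probes named for this comparison, those of smallest p among probes whose groups do not overlap, were not called, and in 10 of them the Cy3 difference was at least 80% of the ratio's. The smallest adjusted p among them was that of A_30_P01023307, which read -0.03, -0.11, -0.22 and -0.12 in wild type and 0.34, 0.26, 0.29 and 0.30 in SOD1G93A, a difference of 0.42 ± 0.07 (SE; limma adjusted p = 0.0883). It was above background in 1 of 4 wild-type and 4 of 4 SOD1G93A nerves. It would not have been kept without its SOD1G93A arrays, so these flags are no support for a difference. It was called in 5 of 21 alternative fits, which are not independent. They include the processed signals and the series table, which hold the same ratios, and the overlapping fits without SOD1G93A replicate 1 and on arrays 2 to 4. Without wild-type replicate 1 its difference was 0.45 (limma adjusted p = 0.135). Also among the positive differences, A_30_P01022270 in chr3:90425270-90435820 read 1.37, 1.40, 1.67 and 1.62 in wild type and 1.98, 2.08, 1.96 and 2.10 in SOD1G93A. That is a difference of 0.51 ± 0.09 (SE; limma adjusted p = 0.0928). The 5 probes of the name differed by 0.29 to 0.51, and the S100a6 probe, for a calcium-binding protein, 9922 bases away on the same strand differed by 0.07 (limma adjusted p = 0.879). A_30_P01030294, near Sbspon, read 2.73, 2.97, 2.98 and 2.80 against 3.51, 3.25, 3.30 and 3.20, a difference of 0.45 ± 0.10 (SE; limma adjusted p = 0.137). A_30_P01020627, without a position, differed by 0.72 ± 0.16 (SE; limma adjusted p = 0.137). A_30_P01022120 (chr13:22114226-22114285) passed the flag for signal well above background in 0 of 4 wild-type and 4 of 4 SOD1G93A nerves. It was kept for testing only through its SOD1G93A arrays, so these flags are no support for a difference. Its mean Cy3 signal was 1.53-fold brighter in SOD1G93A (limma adjusted p = 0.0590 in Cy3 alone and 0.0972 for the ratio). This fold was computed against the higher of the dim probe's own signal and the lowest signal well above background, per array. The measured wild-type signal set it, at a mean log2 of 6.38, so the fold is an estimate and not a lower limit.

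The negative differences included the overlapping probes beside Isoc2a, a gene of the isochorismatase family, none of them called. A_30_P01029418 read 0.66, 0.73, 0.82 and 0.33 in wild type and 0.11, -0.25, -0.19 and 0.05 in SOD1G93A, a difference of -0.71 ± 0.13 (SE; limma adjusted p = 0.0917). A_30_P01023903, with 59 of its 60 bases, differed by -0.66 ± 0.14 (SE; limma adjusted p = 0.127), and A_30_P01023579, 3857 bases from the Isoc2a probe, by -0.38 ± 0.07 (SE; limma adjusted p = 0.112). The Isoc2a probe itself, 300 bases from the first, differed by -0.59 (limma adjusted p = 0.116). These probes are neighbours at 1 locus and are not independent of each other. At chr11:53592946-53637922, A_30_P01030888 passed that flag in 4 of 4 wild-type and 0 of 4 SOD1G93A nerves. It was kept for testing only through its wild-type arrays, so these flags are no support for a difference. In Cy3 the mean of A_30_P01030888 was 1.40-fold dimmer in SOD1G93A (limma adjusted p = 0.161 in Cy3 alone and 0.0928 for the ratio). This fold too is an estimate from the measured signals and not a lower limit. Its neighbour A_30_P01030240 differed by -0.39 ± 0.07 (SE; limma adjusted p = 0.0944), of which -0.20 lay in Cy3 and 0.18 in Cy5. A_30_P01024578 (chr14:76237176-76237235) differed by -0.41 ± 0.09 (SE; limma adjusted p = 0.145).

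**Figure D5:**
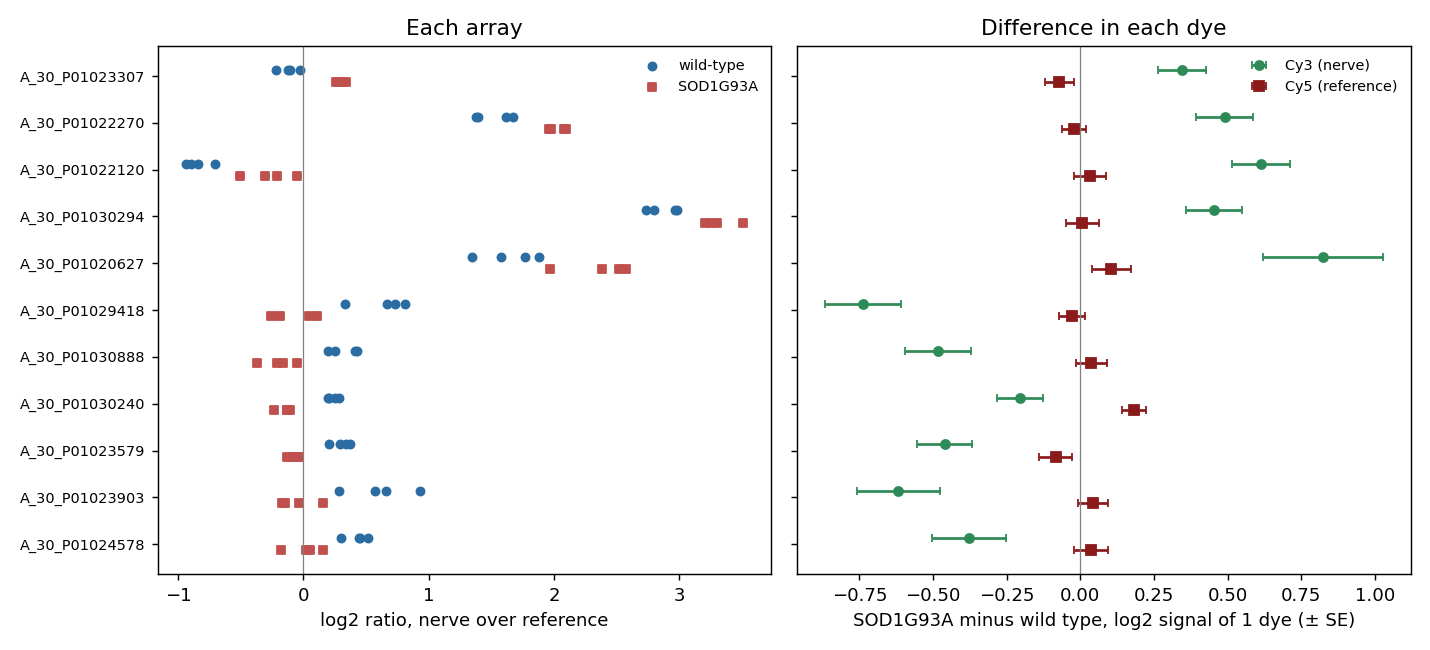
Left, log2 ratio of nerve to reference on each array (horizontal axis) for 11 lincRNA probes named for the genotype comparison, none of them called; right, the SOD1G93A minus wild-type difference (± SE) in log2 signal of each dye. For A_30_P01029418 the wild-type arrays lie at 0.33 to 0.82 and the SOD1G93A arrays at -0.25 to 0.11, and for A_30_P01030240 the difference is -0.20 in Cy3 and 0.18 in Cy5.

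Of 67 named long noncoding RNA genes, listed with earlier results of these data known, 31 had another kind of probe on the array and 20 a kept one. Between genotypes 5 of the 20 had a positive and 15 a negative difference, and 0 were called, with 3 at an unadjusted p under 0.05. Over all kept probes other than lincRNA probes, 44.8% had a positive difference and 11.2% were at an unadjusted p under 0.05. The smallest limma adjusted p was 0.283, for Snhg11, a small nucleolar RNA host gene, at -0.34 ± 0.10 (SE). Snhg1, of the same class, differed by -0.28 ± 0.09 (SE; limma adjusted p = 0.316). Meg3, a maternally expressed imprinted RNA, differed by -0.33 ± 0.17 (SE; limma adjusted p = 0.523) and was at -1.63 ± 0.24 (SD, n = 4) in wild-type nerve against the reference. Peg13, a paternally expressed one, was at 2.14 ± 0.10 (SD, n = 4). A probe named 2900097C17Rik, now Norad, which binds Pumilio proteins, was at 1.22 ± 0.13 (SD, n = 4).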

How the data were processed

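Total RNA of 8 sciatic nerves was measured on 2-colour Agilent arrays. The authors deposited scanner files with spot intensity and local background intensity on a linear scale, with flags for spot quality, and a series table of log10 ratios of Cy5 over Cy3. Per the file headers and the submitters' processing notes the files come from Agilent Feature Extraction (version 11.0.1.1 in the notes, another version in the headers), and the notes name limma without a role. The deposited log10 table was the same as the scanner files' log ratio, with a largest difference of 0 and a median of 0 on each array. Other columns the authors deposited (flags, names) have no unit.

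Mean intensities were corrected with normexp (offset 50) on the local background median and normalized by loess within each array, controls having no weight. The sign was turned so that a positive log2 ratio means more signal in nerve. Spots with outlier flags were left out and spots of a probe averaged. Probes flagged well above background in Cy3 by 4 or more of the 8 arrays were kept. Genotypes were compared per probe over all kept probes with limma 3.58.1 (lmFit, eBayes; R 4.3.3), 2-sided, and a probe was called where the Benjamini-Hochberg adjusted p was below 0.05. The wild-type mean against the reference needed at least 1 log2 unit as well. The number of arrays, 4 a genotype, limits the precision. The labels call the 4 arrays of a genotype biological replicates.

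Named probes are those called between genotypes, filled to 6 a direction by smallest p among probes whose groups do not overlap; the 8 with the highest wild-type Cy3; the 6 highest and 6 lowest called ratios to the reference; the 5 brightest regions with both strands kept; and the 12 gene names. Results for 1 probe are not reported here; the counts of called probes include it. Nearest genes are by distance between probe centres in the files' own coordinates. The members, lists and rules were chosen with earlier results of these data known. The fit of Cy5 alone, the filter in either dye, the search for letters and the names with 3 or more called probes were chosen after seeing the data. Alternatives were the processed signals, the deposited ratios, no background correction, median centring, scaling between arrays, Cy3 alone, other filters, array weights, trended robust variance, 1 probe a name, the replicate number as a block and fits without single arrays. The steps were tested on simulated data. Same-numbered arrays of both genotypes did not deviate together (correlations -0.17, 0.03, -0.12 and 0.09 for numbers 1 to 4), so they were not treated as pairs.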

Additional observations from a re-analysis of the deposited data

Results flagged for a closer look

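A total of 118 sets of 4 arrays, each within 1 genotype, were examined for an array far from the other 3 (gap over range above Dixon's critical value). A set held 1 probe, the mean of the XIST probes, a share of probes well above background or the median ratio of kept lincRNA probes. This held for 14 sets, where chance gives about 1 in 20, and the sets are not independent of each other. All values given below are log2 ratios of nerve to reference.

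The mean of the 5 XIST probes was 1.05 on wild-type replicate 1, against -2.87 to -2.76 on the other wild-type arrays. In SOD1G93A the highest array stood apart, in each case replicate 1, for A_30_P01030703 in the Pura interval at 3.82, A_30_P01031264 at 1.52, A_30_P01023896 at 1.36, A_30_P01020570 at 1.20 and A_30_P01028277 at 0.53; the last 4 are probes of 75 to 80% G and C. The lowest stood apart, also replicate 1, for A_30_P01025369 at -0.45 and A_30_P01031375 at -0.72.

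In wild type, replicate 1 was the lowest for A_30_P01020570 at 0.22 and A_30_P01027463 at 0.14, and the highest for the H19 probe A_30_P01028007 at -1.45. Wild-type replicate 2 was the lowest for A_30_P01027230 at -2.80, replicate 3 the lowest for the NEAT2 probe A_30_P01019221 at -1.19, and replicate 4 the highest for A_30_P01024606 at 2.26.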

How the results depend on the processing

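Detection of lincRNA probes stayed below that of the other probes under every alternative run for it. With the scanner's weaker flag, positive and significant, the share was 33.7% in Cy3 and 48.1% in Cy5. The genotype difference in Cy3 detection was 0.322 points on the arrays numbered 2 to 4 and ran from -1.17 to 0.307 points with single arrays left out, turning sign without wild-type replicate 1. Called lincRNA probes between genotypes numbered 4 with the processed signals and with the series table, 0 with median centring, with Cy3 alone and with 1 probe a name, 24 with array weights, 7 on arrays 2 to 4, and 1 to 13 with single arrays left out. All called probes numbered 14 with the processed signals and with the series table, 2 with median centring, 457 with array weights, 261 on arrays 2 to 4, and 6 to 198 with single arrays left out, the highest count being without SOD1G93A replicate 1. With the replicate block 0 lincRNA probes and 2 of all were called. Nerve against reference gave 590 calls with the processed signals and the series table, and 125 with 1 probe a name. The median ratio was 0.21 with those signals and that table, 0.22 with median centring, 0.026 without a filter, 0.17 for probes above background on all 8 arrays and -0.11 with the filter in either dye.

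Sign changes of the difference between genotypes were in probes not called by the reported fit. With array weights and on arrays 2 to 4, in this order, A_30_P01031448 gave -0.036 and -0.040, A_30_P01031264 -0.11 and -0.15, A_30_P01020570 -0.092 and -0.17, A_30_P01028277 -0.037 and -0.12, A_30_P01031683 -0.082 and -0.16, A_30_P01023896 -0.049 and -0.082, A_30_P01024606 -0.090 and -0.17, A_30_P01024724 -0.024 and -0.16, and A_30_P01017818 -0.039 and -0.068. On arrays 2 to 4 A_30_P01027463 gave -0.00945 and A_30_P01025369 0.016. Cy3 alone gave 0.020 for A_30_P01022075, 0.066 for A_30_P01032068, 0.024 for A_30_P01020518 and -0.013 for A_30_P01024606. Scaling between arrays gave 0.013 for A_30_P01032068 and 0.043 for A_30_P01020518, for which no background correction gave 0.0022. For A_30_P01017818 the processed signals and the series table gave -0.056 and median centring -0.026.

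With single arrays left out, the difference ran from -0.36 to 0.19 for A_30_P01031754, -0.031 to 0.26 for A_30_P01031448, -0.13 to 0.0063 for A_30_P01025369, -0.10 to 0.12 for A_30_P01031264 and -0.049 to 0.096 for A_30_P01017818. It ran from -0.26 to 0.12 for A_30_P01032068, -0.13 to 0.043 for A_30_P01020518, -0.074 to 0.12 for A_30_P01027230, -0.071 to 0.20 for A_30_P01020570 and -0.13 to 0.21 for A_30_P01024606. For the remaining pairs it ran from -0.23 to 0.034 for A_30_P01032382, -0.023 to 0.26 for A_30_P01028277, -0.070 to 0.18 for A_30_P01031683 and -0.029 to 0.19 for A_30_P01023896. The causes were not tested. Over the named probes and all alternatives, 738 differences kept their sign and side of the threshold, 55 turned sign and 25 passed the threshold. Most lincRNA probes lie near background, which limits the ratios of the dim ones.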
